A study of Homo sapiens with 17 samples.

Results

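The genes described here are the replication-dependent histone genes, read on 17 arrays of NKYS cells. They were chosen by their symbols. Every probe set to which the platform annotation gives exactly 1 gene symbol was taken if that symbol belonged to the H1-1 to H1-6 genes or to the numbered H2A, H2B, H3 and H4 gene clusters, and the choice used no measured value. This gave 56 of the 18377 genes with such a probe set, each with 1 probe set: 6 of H1, 14 of H2A, 17 of H2B, 8 of H3 and 11 of H4. In the RefSeq annotation 49 of them lie on chromosome 6, 6 on chromosome 1 and 1 on chromosome 12, and H2BC19P is listed as a pseudogene. A further 20 probe sets carried several histone symbols and were not used, which left 16 symbols that only such probe sets name. Of the 56 genes, 51 had a mean signal above the 30th percentile of all probe sets in both sets of arrays that were fitted, and those 51 were tested. H1-6, H2AC1, H2AC8, H2BC1 and H4C7 were not tested. The filter used each gene's mean over all arrays of a fit.

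NKYS is a long-established line of human NK/T-cell lymphoma. All cells were grown with 10% fetal bovine serum and 100 IU/mL of recombinant interleukin-2, a cytokine that signals through the kinase JAK3, and were electroporated with siRNA or plasmid. The siRNA arrays comprised 2 with JAK3 siRNA and 2 with its control siRNA, and 2 with EZH2 siRNA, each tied by title to 1 of 2 control siRNA arrays. The plasmid arrays comprised 2 with a vector control, 2 each titled EZH2 WT, EZH2 Y244D and EZH2 Y244A, and 1 with EZH2 lacking the SET domain, the catalytic part of this methyltransferase of histone H3. The full-length plasmid arrays are called set 1 and set 2 after the numbers in their titles, with the unnumbered wild-type array in set 2. For the 3 arrays of set 2 the titles and the transfection fields name different constructs, so all 6 were compared with the vectors together and single arrays are named by title. The plasmids were introduced on top of the cells' own EZH2 and JAK3 genes.

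Replication-dependent histone genes are transcribed mainly in S phase, when new DNA has to be packaged. H2A, H2B, H3 and H4 form the core of the nucleosome, and H1 is the linker histone that binds where DNA enters and leaves it. Their messages mostly end in a stem-loop bound by the protein SLBP instead of a poly(A) tail, and the genes lie in clusters of near-identical copies. Transcription uses class-specific promoter elements, among them an octamer that POU2F1 (OCT-1) binds in H2B promoters and an H4 element that HINFP binds.

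Promoters are shown for H4C6, H2BC14 and H3C10, the only histone genes that passed a test below, for H4C8, whose differences were the largest of the H4 genes in both siRNA arms, and for H1-5, the linker gene that differed most between siRNA and plasmid arrays. Each line gives the 100 bases before the transcript start, 5′ to 3′, from RefSeq (GRCh38.p14). The positions are chr6:26240293-26240392, plus strand; chr6:26285535-26285634, minus strand; chr6:27814922-27815021, plus strand; chr6:27809951-27810050, plus strand; and chr6:27867589-27867688, minus strand. Capitals mark every match on either strand to the letters CCAAT of the CCAAT box, to the octamer, written ATTTGCAT, to a hexamer common in H4 promoters, written GGTCCG, or to a TATA box, written TATAAA.
H4C6: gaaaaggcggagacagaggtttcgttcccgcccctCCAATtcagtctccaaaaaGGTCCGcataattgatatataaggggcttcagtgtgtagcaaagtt
H4C8: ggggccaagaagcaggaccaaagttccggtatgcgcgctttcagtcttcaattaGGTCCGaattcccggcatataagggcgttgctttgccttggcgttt
H2BC14: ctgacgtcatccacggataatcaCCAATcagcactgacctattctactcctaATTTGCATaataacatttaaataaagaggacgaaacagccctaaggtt
H3C10: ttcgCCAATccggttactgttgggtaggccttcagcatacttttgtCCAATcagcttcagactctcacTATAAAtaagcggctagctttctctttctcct
H1-5: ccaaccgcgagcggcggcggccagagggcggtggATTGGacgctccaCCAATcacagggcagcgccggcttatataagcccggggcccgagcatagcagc
H4C6 and H4C8 share the GGTCCG hexamer but only H4C6 has CCAAT in this window. H2BC14 has CCAAT upstream of the ATTTGCAT octamer, H3C10 has CCAAT at 2 places and TATAAA, and H1-5 has CCAAT on both strands.

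The same letters were counted in the 250 bases before the start of the 50 histone genes for which a promoter was found, and the motifs overlapped each other in 3 of them. The octamer was present in 10 of 13 H2A and 13 of 16 H2B promoters (76.9% and 81.2%) and in no H1, H3 or H4 promoter, against 1.66% of 27305 promoters of all genes. The hexamer GGTCCG was present in 8 of 9 H4 promoters (88.9%) and in 3 promoters of the other classes, against 9.33% of all. CCAAT stood in every H1, H2A, H2B and H3 promoter found and in 3 of 9 of H4, against 33.0% of all. TATAAA stood in 34 of 50 (68.0%), against 11.1% of all. A match here describes the letters only.

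JAK3 signal was 138 and 137 with JAK3 siRNA and 323 and 326 on its controls, and EZH2 signal was 501 and 489 with EZH2 siRNA against 926 and 691. Of 9 NK cell markers, NKG7, PRF1, GZMB and NCR1 lay above each array's upper quartile on all 17 arrays, NCAM1, EOMES, KLRD1 and TBX21 did so on 6, 5, 2 and 1, and CD244 lay below the median on all 17. Of 20 markers of T, B, monocyte, epithelial and fibroblast cells, 9 lay below the median on all 17 arrays, CD3D, CD3E, CD3G and MS4A1 among them. CD4 lay above the upper quartile on all 17, and KRT18, CSF1R and COL1A1 did on 10, 4 and 2, so the markers do not all follow the labelled cell type. The interquartile range of log2 signal lay between 1.79 and 2.183 with vector or plasmid, and between 2.265 and 2.33 with siRNA. Because histone genes of a class are near-identical, a probe set may also read its neighbours, and the identity of a single gene is uncertain to that extent. Of the 51 tested histone genes, 11 (21.6%) had exactly the same deposited value on 2 or more arrays, against 16.5% of all genes tested in both fits. H2AC14 had 227 on 5 arrays and H2AC11 had 243.7 on 4. H4C6, H2BC14 and H3C10 were tested on values that are shown in full below. An array reads all cells of a culture together, so that less histone RNA per cell and fewer cells in S phase cannot be told apart.

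**Figure D1:**
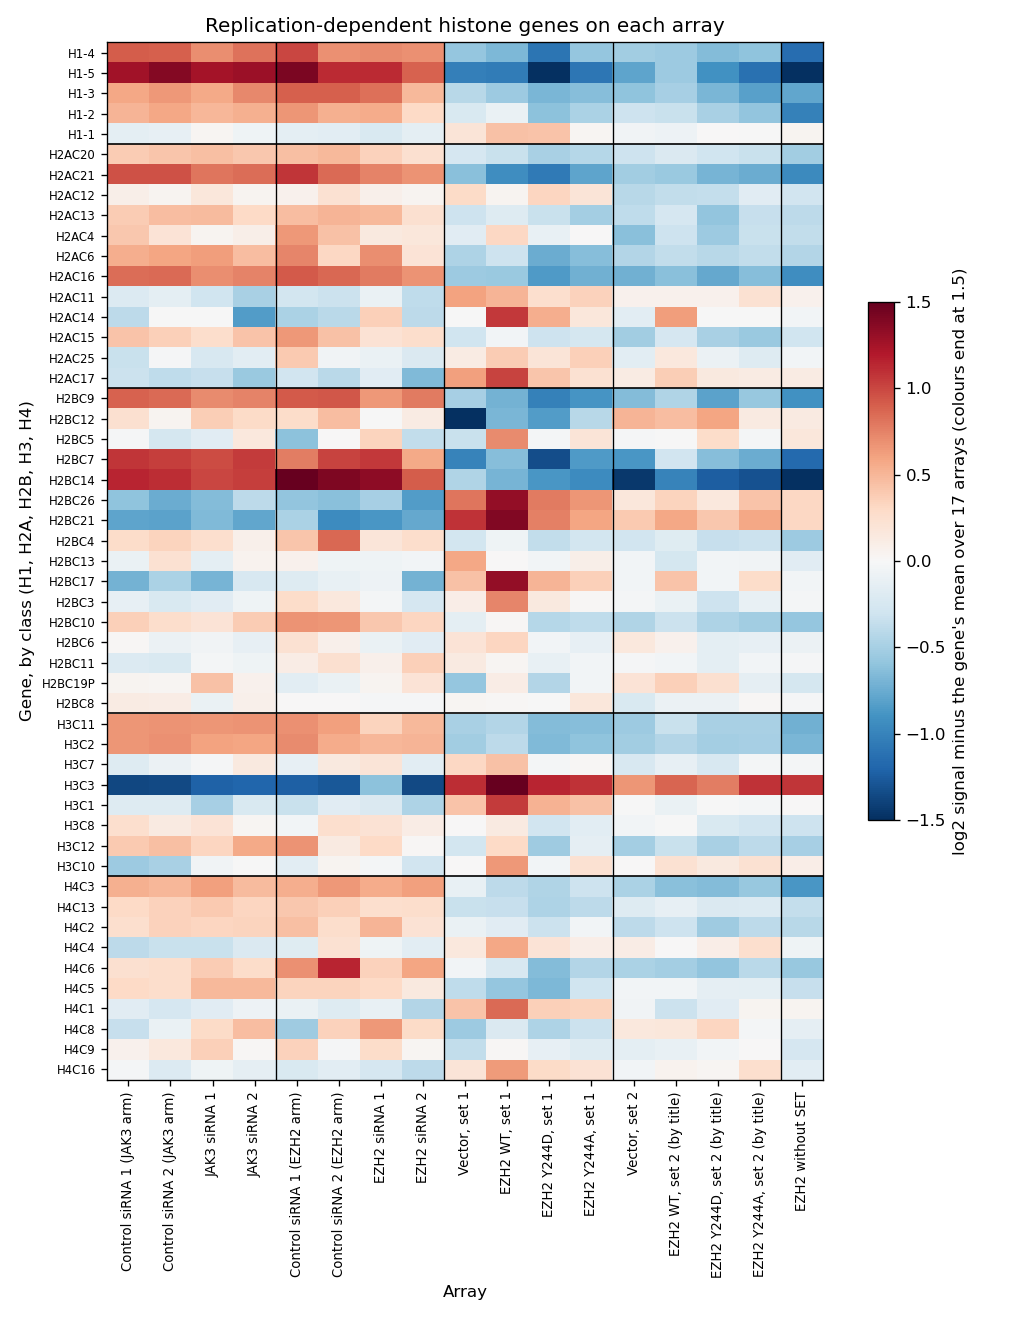
Heat map of the 51 tested histone genes (rows, grouped by class) on 17 arrays (columns). Colour gives log2 signal minus the gene's mean over the 17 arrays, with colours ending at 1.5 in either direction. H1-5, H1-4 and H2BC14 are red on the siRNA arrays and blue on the vector and plasmid arrays, and H3C3, H2BC21 and H2BC26 run the other way.

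With JAK3 siRNA, H3C10 was the 1 histone gene that passed the test, and the classes lay on different sides of 0 by small amounts. H3C10, which encodes a core histone H3, read 131 and 137 on the controls and 185 and 191 with JAK3 siRNA. The JAK3 siRNA arrays lay above both of their controls without overlap. H3C10 rose by 0.485 in log2 signal (SE 0.096, adjusted p = 0.0277 by limma), and it was the only histone gene called higher (1 of 51, with 0.622% of 14466 genes called higher in this comparison). None was called lower, against 0.76% of all genes. At an unadjusted p under 0.05, limma had 5 higher (9.8%, against 5.39% of all genes) and 2 lower (3.92%, against 7.02%). The controls of the EZH2 arm read 173 and 198 for H3C10, so the JAK3 siRNA values lay within the range of those controls. The call was lost when any of the 4 arrays was left out, which left a group with a single array. The difference of H3C10 then ran from 0.453 to 0.517.

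The classes differed in sign under JAK3 siRNA. All 10 H4 genes were above 0 (median 0.0735), and 10 of 12 H2A genes were below 0 (median -0.0785). H1 had 3 of 5 below 0 (median -0.0321), H2B 8 of 16 (median 0.0242) and H3 3 of 8 (median 0.0116). Over the 51 genes the median was 0.0184 with 24 below 0 (47.1%), beside -0.0103 and 54.2% for all genes tested. The difference between classes was not tested. Split by replicate number, H4 had 9 of 10 above 0 for number 1 and 6 of 10 for number 2, while H2A had 6 of 12 below 0 for number 1 and 11 of 12 for number 2.

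Among the H4 genes, which encode the histone that pairs with H3, H4C8 read 158 and 187 on the controls and 245 and 276 with JAK3 siRNA. Its difference was 0.595 (SE 0.20, adjusted p = 0.215 by limma). H4C5 read 426 and 414 on the controls and 482 and 485 with JAK3 siRNA, a difference of 0.203 (adjusted p = 0.243 by limma). For both genes the groups did not overlap, but neither passed the test. The H2A genes with the smallest p were H2AC4 at -0.236 and H2AC11 at -0.217 (adjusted p = 0.264 and 0.317 by limma). H2AC4 read 725 and 634 on the controls against 567 and 585, and H2AC11 read 201.5 and 210.5 against 189 and 166. In both the JAK3 siRNA arrays were the lower ones. The linker genes H1-4, H1-1, H1-5, H1-2 and H1-3 had differences of -0.146, 0.116, -0.056, -0.032 and 0.026, none past the threshold.

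**Figure D2:**
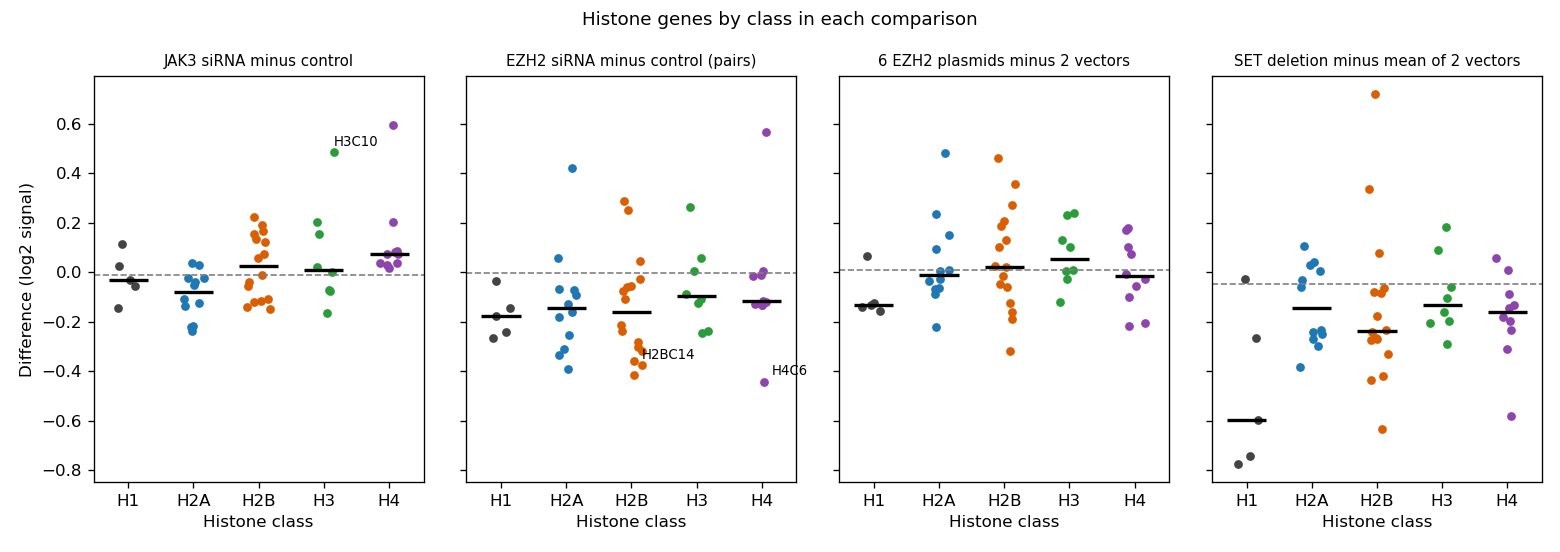
Differences in log2 signal for each tested histone gene (points, coloured by class), with the class median (black bar) and the median of all genes tested (dashed line), for JAK3 siRNA, EZH2 siRNA, the 6 full-length EZH2 plasmids and the SET deletion array. All 10 H4 genes lie above 0 with JAK3 siRNA, and the 5 class medians lie below 0 with EZH2 siRNA and with the SET deletion. Named points passed an adjusted p of 0.05 by limma.

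With EZH2 siRNA most histone genes read lower than their paired controls, by small amounts. H4C6, a core histone H4 gene, read 777 on control 1 and 616 with EZH2 siRNA 1, and 1070 and 729 in pair 2. Both EZH2 siRNA arrays lay below both controls. H4C6 fell by 0.444 (SE 0.078, adjusted p = 0.0341 by limma). H2BC14, a core histone H2B gene, read 666 and 553 in pair 1, and 573.5 and 411 in pair 2, again without overlap. H2BC14 fell by 0.376 (SE 0.075, adjusted p = 0.0444 by limma). These were the only calls among the 51 (2 lower, with 0.567% of all genes called lower, and 0 higher, with 0.373%). At an unadjusted p under 0.05, limma had 19 lower (37.3% of the histone genes, 10.1% of all genes) and 3 higher (5.88% and 5.47%).

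The controls themselves set the scale for these values. On the JAK3 arm's controls H4C6 read 573 and 583, below all 4 arrays of the EZH2 arm, and H2BC14 read 480 and 470, between the EZH2 siRNA arrays. From EZH2-arm control 1 to control 2, the histone genes differed by -0.549 to 0.874 with a median of -0.0129. When 1 array of a pair was left out, the EZH2 effect rested on the other pair alone. The only replicate arrays left to give a spread were then those of the JAK3 arm. Such a fit cannot test the EZH2 effect, so only its size is given. H4C6 was at -0.554 without pair 1 and -0.334 without pair 2, and H2BC14 at -0.482 and -0.269. Without the pair as a block, no histone gene was called, and the adjusted p was 0.149 for H4C6 and 0.18 for H2BC14.

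**Figure D3:**
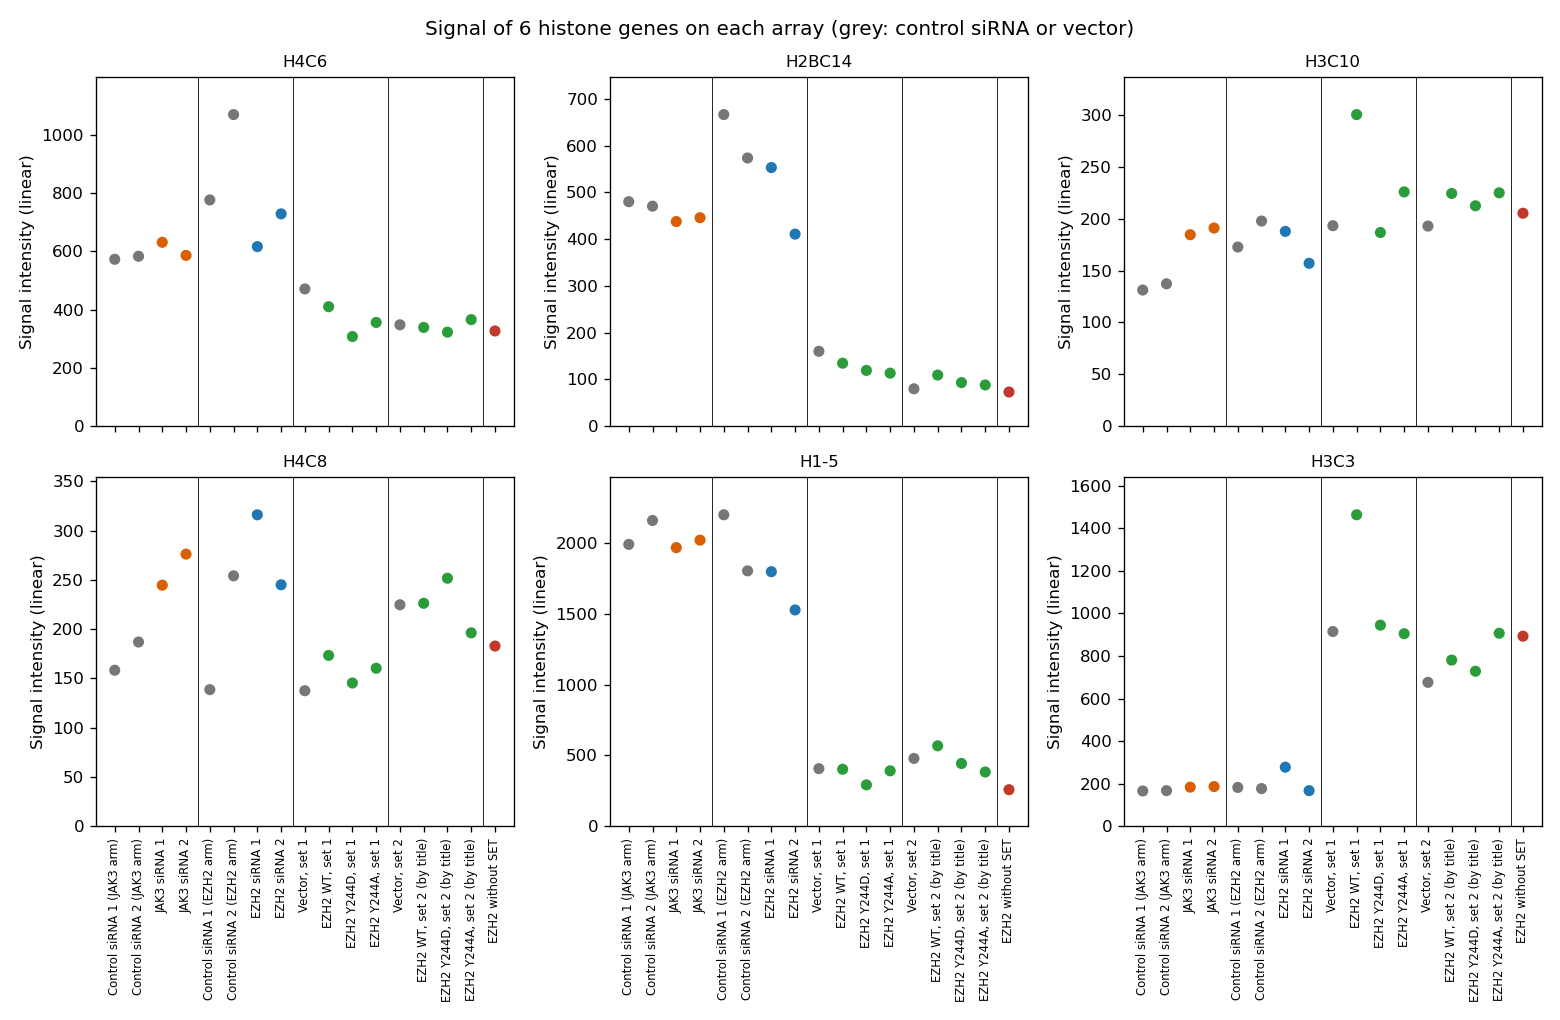
Signal intensity (linear axis from 0) of H4C6, H2BC14, H3C10, H4C8, H1-5 and H3C3 on each of 17 arrays, with points coloured by treatment and grey for control siRNA or vector. H4C6 reads 616 and 729 with EZH2 siRNA against 777 and 1070 on the paired controls, and H3C10 reads 131 and 137 on the JAK3 controls against 185 and 191.

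Counting signs, 41 of 51 histone genes were below 0 with EZH2 siRNA (80.4%, against 51.8% of all genes tested), and the median was -0.124 against -0.00424. The 5 linker genes were all below 0 (median -0.176). H1-5 read 2200 and 1804 on controls 1 and 2, and 1798 and 1528 with EZH2 siRNA. The differences were -0.266 for H1-5, -0.241 for H1-3, -0.176 for H1-2, -0.146 for H1-4 and -0.036 for H1-1, and the smallest adjusted p among them was 0.104 by limma. H2A had 10 of 12 below 0 (median -0.144), H2B 13 of 16 (median -0.159), H3 5 of 8 (median -0.0967) and H4 8 of 10 (median -0.117). The H3 genes thus had the smallest share below 0 and the linker genes the largest. Among genes with a mean signal of 256 or more, where 65.5% of all genes were below 0, 24 of 27 histone genes were (88.9%). Under 256 the shares were 47.4% and 70.8% (17 of 24).

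H2BC3, H2AC4 and H2BC4 came next by p. H2BC3 read 121 and 111 on the controls against 98.0 and 83.7, a difference of -0.358 (adjusted p = 0.0501 by limma). H2AC4 read 864.5 and 747 against 607 and 619, a difference of -0.391 (adjusted p = 0.054 by limma). H2BC4 read 202 and 275 against 171 and 182, a difference of -0.417 (adjusted p = 0.0556 by limma). In all 3 genes the siRNA arrays lay below both controls. Among H2A and H2B genes with a promoter found, the 20 with the octamer had a median of -0.196 (17 below 0). The 6 without it had -0.093 (5 below 0). With JAK3 siRNA these medians were -0.08 (14 below 0) and -0.03 (4 below 0), in the same order. These differences were not tested.

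Gene by gene, the 2 pairs differed from each other. In pair 1, 32 of 51 histone genes were below 0 (62.7%, median -0.0678) while 58.1% of all genes were. In pair 2, 44 of 51 were below 0 (86.3%, median -0.184) while 46.3% of all genes were. In both pairs 27 were below their control (52.9%, against 28.3% of all genes) and 2 were above it (3.92%, against 23.5%). Across the 51 genes the differences of pair 1 and pair 2 had a Pearson correlation of 0.0872, given as a description because genes of an array share its preparation.

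Several genes that read higher in pair 1 did not in pair 2. H4C8 went from 139 to 316 in pair 1 and from 254 to 245 in pair 2. H2BC5 went from 221 to 427 and from 340.5 to 263, and H2AC14 from 165 to 294 and from 172.5 to 174. H3C3 went from 182 to 278 and from 177 to 167. For H4C8, H2BC5 and H3C3 the siRNA array was above its control in pair 1 and below it in pair 2. For H2AC14 pair 2 differed by 0.01. None of the 4 passed the test over both pairs, and they were chosen after their values were seen.

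**Figure D4:**
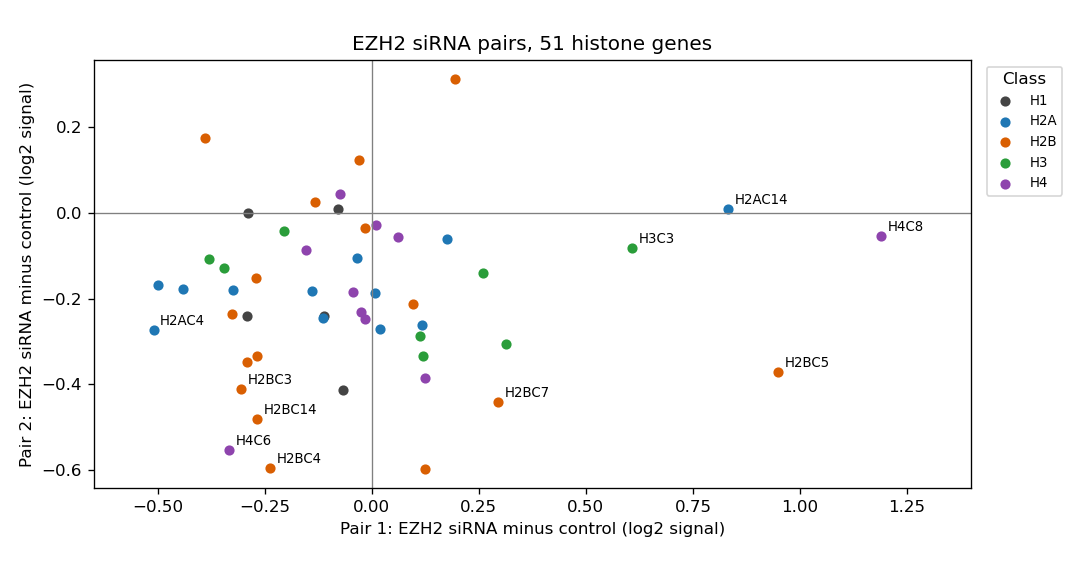
Difference between EZH2 siRNA and its paired control in log2 signal for 51 histone genes, pair 1 on the horizontal axis and pair 2 on the vertical axis, coloured by class. 27 genes lie in the lower left, where both pairs are below 0, and H4C8, H2BC5, H2AC14 and H3C3 lie far to the right, high in pair 1 alone.

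Genes that work with the histone genes were read in the same arrays. Of 21 S phase genes, the replication machinery active when histones are made, all were below 0 with EZH2 siRNA (median -0.264). CDC6, which loads the replicative helicase, read 312 and 337 on the controls against 214 and 271.5 and fell by 0.429 (adjusted p = 0.0341 by limma). It was the 1 call among them. Their median was -0.385 in pair 1 and -0.116 in pair 2, whereas that of the histone genes was -0.0678 and -0.184. The S phase median was thus further from 0 in pair 1 than in pair 2, and the histone median was closer. Of 20 genes for histone transcription and 3′ end processing 18 were below 0 (median -0.158), and none was called. CDK2, the S phase kinase, had -0.364 and ERI1, which trims the histone 3′ end, -0.304 (adjusted p = 0.0501 and 0.0699 by limma). Of 18 histone chaperones and importers 17 were below 0 (median -0.154), with SSRP1 of the FACT complex at -0.418 and NASP, an H3-H4 chaperone, at -0.285 (adjusted p = 0.0593 and 0.106 by limma), none called. Of 9 replacement and variant histones, made outside S phase as well, 8 were below 0, with a median of -0.0287. Their part in the histone values was not tested.

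With JAK3 siRNA the same lists were also mostly below 0 while the histone genes were not. S phase genes had 19 of 21 below 0 (median -0.125) and processing genes 16 of 20 (median -0.0755). SLBP, the stem-loop binding protein, had -0.211 and LSM10, of the U7 particle that cuts histone messages, -0.191 (adjusted p = 0.298 and 0.352 by limma). Chaperones had 15 of 18 below 0 (median -0.054) and replacement histones 7 of 9 (median -0.0418), and none of these genes was called.

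The siRNA effects were set against each other within the same fit. The JAK3 effect minus the EZH2 effect was above 0 for 41 of 51 histone genes and below 0 for 10 (19.6%, against 49.9% of all genes), with a median of 0.147 beside 0.000479 for all genes. No histone gene passed (0.138% of all genes were called higher and 0.228% lower), with 9 higher (17.6%, against 4.27% of all genes) and 1 lower (1.96%, against 3.86%) at an unadjusted p under 0.05 by limma. H4C6 had a difference of 0.517 (SE 0.111), H2BC12 0.511 (SE 0.115) and H3C10 0.591 (SE 0.135), with adjusted p = 0.0882, 0.11 and 0.119 by limma. H2BC3 had 0.418 and H4C5 0.318 (adjusted p = 0.176 and 0.328 by limma). All 5 genes lay above 0, but none can be called different between the siRNAs. With an array left out, the difference ran from 0.408 to 0.627 for H4C6 and from 0.364 to 0.818 for H3C10. Without an EZH2-arm array only 1 EZH2 pair remains, so those fits cannot serve as tests.

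The full-length EZH2 plasmids called no histone gene in either direction. No gene at all was called higher or lower among 14410 (0% in each direction), and 10 genes, none of them a histone gene, had an unadjusted p under 0.05 by limma. EZH2 itself read 259 and 349.5 with vector and from 802.5 to 2221 with a full-length plasmid, a difference of 1.848 (SE 0.347) that had an adjusted p of 1 by limma. The count of 0 therefore comes from a comparison in which the introduced gene did not pass either. Over the 51 histone genes the median was 0.00358, with 25 below 0. H1 had 4 of 5 below 0 (median -0.133), at -0.158 for H1-2, -0.14 for H1-4, -0.133 for H1-3, -0.123 for H1-5 and 0.067 for H1-1. The medians of H2A, H2B, H3 and H4 were -0.0117, 0.0233, 0.0558 and -0.0161. Over all 51 the median was -0.0493 after quantile normalization, so that its sign was not settled.

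The smallest unadjusted p values belonged to H2BC13, H2AC14, H2BC5, H2AC21 and H4C9, at -0.318, 0.483, 0.359, -0.22 and 0.181, each with an adjusted p of 1 by limma. H2BC13 read 180 and 117 with vector and 101 to 129 with the 6 plasmids, so its difference rests on vector 1. H2AC14 read 227 and 204 with vector and 227 to 478 with plasmids. H2BC12 was the histone gene whose vectors were furthest apart, at 177.5 in set 1 and 810 in set 2. In set 1 all 3 plasmid arrays, at 317 to 428, lay above their vector, with a mean log2 difference of 1.033. In set 2 the plasmid arrays read 625.5 to 860, on both sides of their vector, with a difference of -0.111. The histone genes' median was -0.0667 in set 1 and 0.0331 in set 2.

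The SET deletion array has no replicate, so its differences carry no test. It read below both vectors for 26 of 51 histone genes (51%, against 19.4% of 14410 genes) and above both for 2 (3.92%, against 7.48%). The median difference from the mean of the vectors was -0.198, beside -0.0462 for all genes. After quantile normalization 16 were below both vectors (31.4%, against 24.1% of all genes) and the median was -0.148. Against the 6 full-length plasmid arrays it was below all 6 for 17 (17.7% of all genes were) and above all 6 for 0 (6.07% of all genes were). Among genes of 256 or more in signal, 15 of 26 histone genes lay below both vectors (57.7%) against 16.4% of all genes. From vector 1 to vector 2, 38 of 51 histone genes were lower (74.5%, against 48.2% of all genes). Their median was -0.153, beside 0.052 for all genes. On histone genes the vectors thus differed from each other by an amount close to the median given for the SET deletion.

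By class median, the linker genes lay furthest below the vectors on the SET deletion array. H1-2 read 157 there against 270 and 255 with vector and 207.5 to 296 with full-length plasmids. H1-5 read 258 against 407 and 479 with vector and 292 to 568 with plasmids, and H1-4 read 821 against 1215 and 1269 with vector and 853 to 1245 with plasmids. In these 3 genes the SET deletion array was the lowest of the 9 vector and plasmid arrays. This was not particular to H1. It held for 15 of 51 histone genes, among them 2 of H2A, 4 of H2B, 3 of H3 and 3 of H4. Of all genes it held for 1575 of 14410. H1-3 read 332, below both vectors (427 and 373) but inside the plasmid range of 323 to 401.5, and H1-1 read 43.3, between the vectors. Single genes of other classes lay as far as H1-2, H1-4 and H1-5 from 1 vector but not from both. H2BC14 differed by -1.137 from vector 1 and -0.131 from vector 2, and H2BC12 by 1.814 and -0.375. The H4 gene H4C3, at -0.762 and -0.399, lay further below both vectors than the linker gene H1-3, at -0.364 and -0.168. The class median against the vectors was -0.597 for H1, -0.145 for H2A, -0.237 for H2B, -0.133 for H3 and -0.161 for H4. Of the 2 histone genes above both vectors, H2BC5 was further from the nearer vector, at 379.8 against 269 and 335, and H3C10 was the other, at 205 against 193 and 193. S phase genes on this array were below both vectors for 15 of 21 (median -0.431). Their part in the histone values was not tested.

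Between the siRNA arrays and the arrays with vector or plasmid, some histone genes differed by more than in any siRNA arm. Electroporated material and whatever preparation went with it cannot be told apart in this contrast, and the signal distributions differ too, so values are given with no test. H1-5 read 1528 to 2200 on the 8 siRNA arrays (median 1980) and 258 to 568 on the 9 others (median 402), without overlap. H2BC14 read 411 to 666 (median 475) and 72.7 to 159.9 (median 109). Their mean differences were -2.29 and -2.25 in log2 signal, so that both were over 4 times lower on the vector and plasmid arrays. H3C3, a core histone H3 gene, ran the other way, from 166 to 278 (median 179.7) on siRNA arrays to 676 to 1464 (median 905) on the others, a difference of 2.26.

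At 2-fold or more and without overlap, 11 of 51 histone genes were lower on the vector and plasmid arrays (21.6%, against 7.38% of 14214 genes) and 3 were higher (5.88%, against 0.281%). The lower genes were the linker genes H1-3, H1-4 and H1-5, the H2A genes H2AC16 and H2AC21, the H2B genes H2BC7, H2BC9 and H2BC14, the H3 genes H3C2 and H3C11, and H4C3. The higher genes were H3C3, H2BC21 and H2BC26, and all 3 had a mean signal under 256 on the siRNA arrays. All 11 lower genes had 256 or more there (11 of 27, 40.7%), where 21.9% of all genes were lower and 0.168% higher. After quantile normalization the counts were 7 (13.7%, against 4.5% of all genes) and 3 (5.88%, against 0.837%). H1-4 read 2931 to 3633 (median 3084) against 821 to 1269 (median 1199), and H2AC21 read 1487 to 1956 (median 1674) against 449 to 651 (median 559).

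Not every gene of a class differed in this way. Here H3C7 was chosen after its values were seen. H3C7 overlapped, with 804 to 1054 (median 891) on siRNA arrays against 780.5 to 1254 (median 907) elsewhere, and so did H2BC12, with 565 to 785.5 (median 681) against 177.5 to 860 (median 624). H2AC20 read 2431 to 2881 against 1430 to 1774, apart but by less than 2-fold. By class the median difference was -1.33 for H1, -0.613 for H2A, -0.0532 for H2B, -0.126 for H3 and -0.456 for H4, where H3 turned to 0.211 after quantile normalization. Within H2B the differences ran from -2.25 to 1.44. In the same contrast all 21 S phase genes were lower by 2-fold or more without overlap (median -1.62), with CDC6 at 214 to 369 (median 313) against 59.3 to 125 (median 76.7). Of the chaperones and importers 10 of 18 were lower in this sense, of the transcription and processing genes 6 of 20, and of the replacement and variant histones 1 of 9. Sums of cell type markers differed in this contrast as well. Over 9 NK markers the sum ran from 7081 to 11150 with siRNA against 3985 to 6649 with vector or plasmid. Over 7 epithelial and fibroblast markers it ran from 490.4 to 534.4 against 582 to 1020, and neither sum overlapped. The sums lean on their brightest members, PRF1, GZMB and NKG7 in the first and KRT18 in the second. Taken singly, only NCAM1 and NKG7 of the NK markers were lower without overlap. PRF1, GZMB, KLRD1, NCR1, EOMES and CD244 overlapped, and TBX21 ran from 84.85 to 102.4 with siRNA against 96.55 to 153.1. Of the epithelial and fibroblast markers only KRT18 and PDGFRB were higher without overlap, and EPCAM, KRT8, CDH1, COL1A1 and COL1A2 overlapped. The sums of the T, B and monocyte markers overlapped. The part of these genes and markers in the histone values was not tested.

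**Figure D5:**
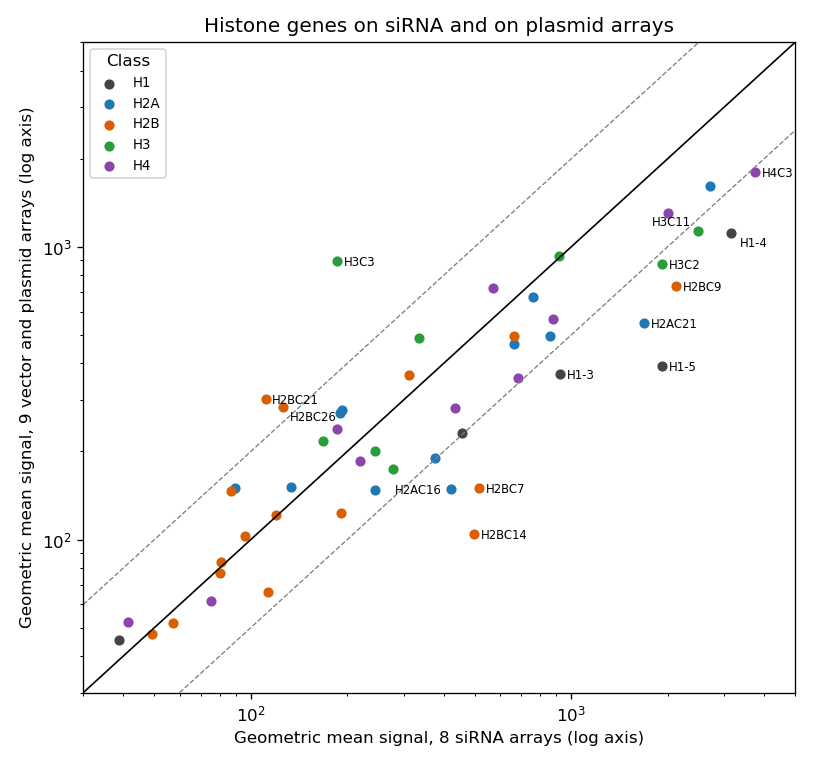
Geometric mean signal of 51 histone genes on the 8 siRNA arrays (horizontal, log axis) and the 9 vector and plasmid arrays (vertical, log axis), coloured by class. The solid line is equality and the dashed lines mark 2-fold. The 11 labelled genes below the lower dashed line include H1-5 and H2BC14, and H3C3, H2BC21 and H2BC26 lie above the upper one.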

How the data were processed

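Per the labels' protocols, RNA was extracted with TRIzol and a column kit, and biotinylated cDNA was made from 100 ng of total RNA with a Nugen whole-transcript kit. The deposited values are linear signal intensity of 28869 probe sets; background correction, normalization and summarisation are not given in the sources used here. Values were used as deposited, after log2. The platform annotation gives 19310 probe sets 1 symbol, 1752 several and 7807 none; the highest-mean probe set stood for each gene. Genes under the 30th percentile of mean signal were left out.

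Tests used limma 3.58.1 in R 4.3.3 (lmFit, eBayes, two-sided, Benjamini-Hochberg over all genes, threshold 0.05) with the data.table package (version 1.17.8), and were tested on simulated data; figures used matplotlib 3.10.9. The 8 siRNA arrays formed 1 fit (3 residual degrees of freedom), with the EZH2 pairs, tied by title, as a block; the 8 vector and full-length plasmid arrays formed another (6). The deviations of paired EZH2 arrays correlated with r = -0.0857. The labels do not say whether arrays came from separate cultures, so p-values measure the spread between arrays, which may be technical. Alternatives covered scaling, filters, probe sets, variance fitting, blocks and left-out arrays.

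The symbol rule used no measured value, but this gene family and the gene lists were chosen with earlier results of these data known. Named are members past the threshold, or the 5 with the smallest p; all H1 genes; the brightest and the 2 most variable members of a class; the extremes of the SET deletion; and from each list the calls or the 2 smallest p. Genes chosen after their values were seen are said to be.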

Additional observations from a re-analysis of the deposited data

Results flagged for a closer look

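Among the 6 full-length plasmid arrays, 10 of 51 histone genes (19.6%) had 1 array standing apart by Dixon's test. Chance gives about 1 in 20 for independent genes, but genes read on the same array share its preparation. The share over all genes was not computed, so the count cannot show an excess among histone genes. In 9 of these 10 it was the wild-type array of set 1, and it was high. On it H3C3 read 1460 (729 to 945 on the other 5), H3C7 1250 (780 to 932) and H3C10 300 (187 to 226). Of the H2B genes H2BC5 read 552 (331 to 411), H2BC21 495 (250 to 318), H2BC17 287 (112 to 163), H2BC3 166 (80.5 to 111) and H2BC10 86.6 (59.5 to 68.4). H2AC17 read 236 (127 to 156). EZH2 signal on this array was 1020, inside the range of 802.5 to 2221 over the 6 arrays. In the tenth gene, H1-4, the Y244D array of set 1 was low, at 853 against 1140 to 1250.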

How the results depend on the processing

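In all, 266 counts and medians were recomputed under an alternative, and 229 stayed close to the main value while 37 did not. Close meant within a fixed fold for counts, and a move below the spread between replicate arrays for medians. Call counts of 0 that stayed 0, as for the plasmids, are among the 229. For JAK3 siRNA the 1 higher call became 0 after quantile normalization, without a filter and with a replicate block. The shares of all genes called higher were then 0.491%, 0.201% and 0.277%. The count became 2 (3.92%) with array weights or only the arrays compared, against 2.24% and 1.84% of all genes. The median moved to 0.0362 after quantile normalization and 8.96e-05 with a 50th percentile filter, and ran from -0.00387 to 0.00746 without an array. For EZH2 siRNA the 2 lower calls became 1 after quantile normalization (1.96%, against 0.228% of all genes). They became 4 with arrays centred (7.84%, against 1.11%) and 5 with trend and robust fitting (9.8%, against 1.07%). Without a filter and with array weights they became 0, and no gene at all was called. With no replicate block they became 0, against 0.0968% of all genes. Higher calls were 2 with only the arrays compared (3.92%, against 0.837%). Leaving out an EZH2-arm array gave a median of -0.184 to -0.0678. The counts in those fits were 0 to 8 lower and 0 to 3 higher. Each such fit rested on 1 EZH2 pair and cannot test the EZH2 effect, so no conclusion is drawn from these counts. The JAK3 minus EZH2 difference had a median of 0.0942 to 0.156 with an array left out. On the SET deletion array, quantile normalization gave 16 genes below both vectors (31.4%, against 24.1% of all genes) and 11 below all 6 plasmids. Above both vectors lay 5 with arrays centred and 4 without a filter. For the counts of 11, 5 and 4 the share over all genes was not computed, so they cannot show an excess. Against the siRNA arrays quantile normalization gave 7 lower genes (13.7%, against 4.5% of all genes). The cause was not tested. With the set as a replicate block, the plasmids still called 0. The same numbers in the JAK3 arm and the plasmid sets gave r = 0.151 and 0.842.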
